A study of Caenorhabditis elegans with 13 samples.

Results

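Some nematode genes are still known only by the name of the cosmid or clone they were sequenced on, such as Y39B6A.1. Of 6718 genes with such a sequence-style name that were measured singly on the array, 18 were brighter in embryonic muscle cells that had been cultured for 24 hr but not in muscle cells taken straight from the embryo. A gene was counted among them when its mean log2 intensity in cultured muscle exceeded that of the cultured reference by at least 1, when every muscle array lay above every reference array at 24 hr, and when its mean in fresh muscle exceeded the fresh reference by less than 0.3. Each gene was represented by the brightest probe set that names it alone, and 17118 genes of any name were measured in this way. Of the 137 sequence-named genes that met both conditions at 24 hr, all but these 18 were also higher in fresh muscle by at least 0.3. Both comparisons chose the 18 genes, so their differences at either time are given as descriptions and are not tested.

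RNA was profiled on 13 Affymetrix C. elegans arrays. Muscle cells came from strain PD4251, in which the integrated transgene ccIs4251 carries GFP under the control of myo-3, a myosin heavy chain gene. Reference cells came from the wild-type isolate N2 and were all sorted cells that excluded propidium iodide, so the reference also held muscle cells, and strain cannot be told apart from cell type in any comparison of muscle with reference. Cells were dissociated from chitinase-treated embryos of bleached adults and sorted immediately (M0, 3 arrays, and R0, 3 arrays) or plated on poly-L-lysine for 24 hr and then sorted (M24, 3 arrays, and R24, 4 arrays). The labels call the arrays of a group biological replicates. myo-3 is also used by the anal and enteric muscles, and the sorted fraction was enriched for GFP-positive cells rather than pure.

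Body wall muscle is the main muscle of the embryo. Its cells are specified in the early embryo, express myogenic factors such as HLH-1, and then build obliquely striated sarcomeres, attach to the hypodermis and receive input from motor neurons. Embryos beyond the comma stage resist dissociation, so culture of dissociated blastomeres is used to reach cells that have gone on to differentiate. Time in culture and stage of differentiation cannot be told apart with these samples.

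myo-3, the gene whose regulatory region drives the GFP, was higher in muscle by 2.80 ± 0.45 (log2, SE of the limma fit, adjusted p = 0.0033) at 0 hr and by 1.79 ± 0.30 (adjusted p = 0.013) at 24 hr. Of 14 body wall muscle markers, 14 were raised at 0 hr and 13 at 24 hr, where raised means a fold of at least 1.7 with a limma adjusted p under 0.05. Their summed intensity was 4659 to 10380 in R0, 26121 to 33481 in M0, 3825 to 6335 in R24 and 14060 to 25387 in M24. Markers of neurons (16 measured, 7 lowered at 24 hr and 9 at 0 hr) and epidermis (12 measured, 9 and 10 lowered) were never raised, and of 11 intestinal markers 1, cpr-1, was raised at 24 hr and 1, act-5, was lowered. In these bulk samples fewer cells of a type and less RNA per cell cannot be told apart. Array medians lay between 49.2 and 58.0, and replicate pairs of M24 arrays agreed less closely (mean R² 0.871, 0.797 to 0.959 over 3 pairs) than those of M0 (0.923), R0 (0.937) or R24 (0.957). All arrays at 0 hr came from 1 chip lot and all recorded arrays at 24 hr from another, so lot and time cannot be told apart. At 24 hr no recorded scan day held both muscle and reference, so scan day and cell type cannot be told apart there. R24 replicate 4 has no recorded day. The paper cites an earlier study for the R24 arrays.

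The 18 genes exceeded the cultured reference by a median of 1.17 (log2), with a range of 1.01 to 2.65, or folds of 2.01 to 6.27. In fresh cells their median difference was 0.08, with a range of -1.47 to 0.26. The same medians over all 17118 genes were 0.10 at each time, and those of the rest of the 137 sequence-named genes, which were higher at both times, were 1.68 at 24 hr and 1.57 at 0 hr. The limma test called 13 of the 18 raised at 24 hr, beside 416 of all genes (2.43%). A difference of at least 1 at 24 hr was found in 476 of all genes (2.78%). Every muscle array above every reference array, which the selection required, was found for 2883 of all genes at 24 hr (16.8%). None of the 18 was called raised at 0 hr (676 of all genes, 3.95%) and 2, W06H8.2 and F22B8.7, were called lowered (1415 of all genes, 8.27%). The same 2 were the only ones of the 18 with every fresh muscle array below every fresh reference array, beside 2602 of all genes (15.2%). Since the same comparisons chose the genes, these counts carry no evidence about them.

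**Figure D1:**
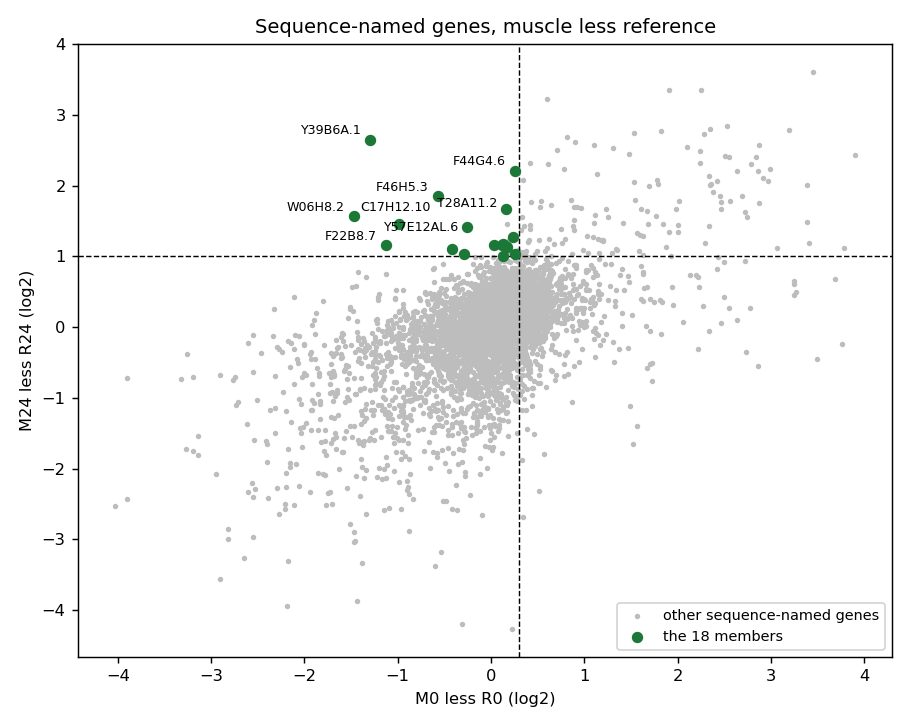
Difference of muscle from reference (log2) at 0 hr on the x axis and at 24 hr on the y axis for 6718 sequence-named genes, with dashed lines at the selection thresholds of 0.3 and 1. The 18 selected genes, in green, reach 2.65 at 24 hr (Y39B6A.1) and spread from -1.47 to 0.26 at 0 hr; grey points in the same corner did not separate from the reference on every array.

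For description the genes were put in 3 bands by their value in fresh cells, with cuts made after the values were seen. The SEs at 0 hr ran from 0.16 to 0.56, so genes near a cut could fall on either side. In 4 genes (W06H8.2, Y39B6A.1, F22B8.7 and C17H12.10) fresh muscle was lower than its reference by more than 0.9 on the log2 scale. In another 4 (F46H5.3, T09B4.8, F56A11.5 and Y57E12AL.6) the difference lay between -0.57 and -0.26. In the remaining 10 it lay between 0.04 and 0.26. With scan day as a fixed block, F46H5.3 read -1.68, T09B4.8 -0.97 and F40A3.3 -0.10, so the bands depend on the fit. R0 replicate 2 and M0 replicate 3 were alone on their scan days and did not enter the difference under that block. Without that block, the difference between the 2 enrichments (24 hr less 0 hr) ran from 0.77 in D1054.1 to 3.95 in Y39B6A.1, with a median of 1.42. Limma called it in 5 of the 18 (Y39B6A.1, W06H8.2, C17H12.10, F22B8.7 and F44G4.6), beside 178 of all genes (1.04%), again on values that took part in the selection.

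**Figure D2:**
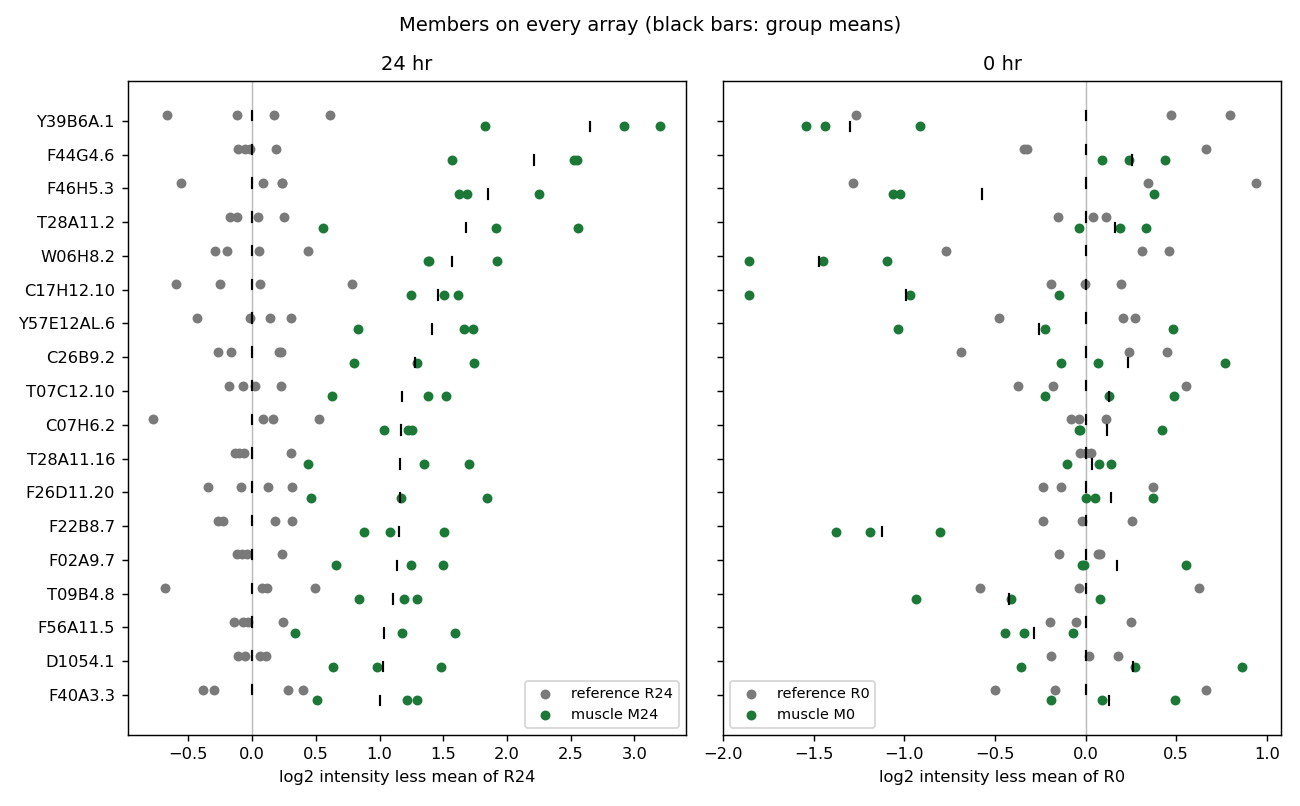
Log2 intensity of each selected gene on every array less the mean of its reference group, at 24 hr (left) and 0 hr (right), with reference arrays in grey, muscle arrays in green and group means as black bars. At 24 hr no muscle array overlaps the reference, while at 0 hr only W06H8.2 and F22B8.7 separate, with muscle below reference.

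Most of the genes were well expressed in cultured muscle. Their median percentile among all probe sets was 88.4 in M24 and 70.03 in R24, against 44.4 and 43.2 for all sequence-named genes, and 16 of the 18 lay above the median probe set in M24. In M24 the lowest percentile was 37.0, for T07C12.10, and the highest 99.3, for F46H5.3. The sequence-named genes that were higher at both times had a median percentile of 84.9 in M24 and 59.4 in R24. M24 and R24 intensities took part in the selection, so the contrast with all sequence-named genes carries no evidence about the 18. A probe set's intensity depends on its probes, so these ranks place the genes roughly and were not used to set one gene against another.

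By the WormBase annotation used in the study, 10 of the 18 genes have a described or related protein, 7 have no function given, and 1 (F26D11.20) is listed as a non-coding RNA in the RefSeq table. For description, 5 of the 10 were grouped here under energy or small-molecule metabolism. The annotation itself calls F22B8.7 and F56A11.5, both in that group, uncharacterised. Of the rest, 2 encode cysteine-rich proteins predicted to be secreted, 1 encodes a lipid-binding protein, 1 a ribosomal constituent and 1 a relative of a phosphatase subunit. All 18 were found in the RefSeq table, where 17 are listed as protein coding.

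F46H5.3 (probe set 189706_s_at) encodes a kinase whose closest human relatives are creatine kinases and whose closest fly relative is arginine kinase, enzymes that store high-energy phosphate in muscle. Its intensity was 5666, 3828 and 3671 in the 3 M24 arrays and 1263, 1401, 1398 and 809 in the 4 R24 arrays, a difference of 1.85 ± 0.25 (log2, SE) or 3.62-fold. The lowest cultured muscle array was 2.62 times the highest cultured reference array, the widest gap of the 18. Fresh cells showed no such separation. R0 gave 3242, 695 and 2141 and M0 gave 831, 809 and 2190, so that the ranges overlapped and the mean difference was -0.57 ± 0.56. The SD of the R0 arrays (1.15, log2) was the highest of any group and gene in the set. The named arginine kinase gene argk-1 gave 0.24 ± 0.10 at 24 hr and 0.68 ± 0.26 at 0 hr, and neither was called by limma (adjusted p = 0.17 and 0.15).

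The other genes grouped under metabolism were T09B4.8, D1054.1, F22B8.7 and F56A11.5. T09B4.8 (189528_s_at), annotated as an alanine-glyoxylate aminotransferase, read 514, 479 and 375 in M24 against 130, 228, 296 and 221 in R24 (1.11 ± 0.28). In fresh cells it read 97.5, 67.6 and 137 in M0 against 200, 86.4 and 126 in R0, ranges that overlapped (-0.42 ± 0.34). Another probe set for this gene, 189527_at, gave 1.05 ± 0.35 at 24 hr, but there the lowest M24 array and the highest R24 array had the same intensity of 206. D1054.1 (190316_at), related to patatin-like phospholipases and adiponutrin, which act on lipids, read 305, 432 and 240 in M24 against 144 to 167 in R24 (1.03 ± 0.20). It had the smallest spread among R24 arrays of the 18 genes (SD 0.10). Its M0 arrays, at 288, 124 and 191, lay on both sides of its R0 arrays (139 to 179).

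F22B8.7 and F56A11.5 are both annotated as uncharacterised iron-sulphur proteins related to human proteins with a molybdenum cofactor sulphurase C-terminal domain. They behaved differently in fresh cells. F22B8.7 (179302_at) read 379, 270 and 314 in R0 and 139, 123 and 182 in M0, so that every fresh muscle array lay below every fresh reference array (-1.12 ± 0.21). In cultured cells the order was turned round, with 328, 441 and 285 in M24 against 193, 133, 176 and 129 in R24 (1.15 ± 0.21). F56A11.5 (185282_s_at) read 76.0, 104 and 83.9 in R0 and 68.8, 64.1 and 83.0 in M0, which overlapped (-0.28 ± 0.19). At 24 hr its M24 arrays read 206, 275 and 116 and its highest R24 array 108, a gap of only 1.07-fold and the narrowest of the set. The difference between the 2 genes at 0 hr was not tested.

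T28A11.2 and T28A11.16 belong to the same family of cysteine-rich proteins with a predicted secretion signal. Both lay at or below the 25.3rd percentile of probe sets in R0, M0 and R24. T28A11.2 (184849_at) read 95.2, 149 and 37.2 in M24 against 22.4 to 30.1 in R24 (1.68 ± 0.43), and 19.5 to 25.2 in M0 against 17.99 to 21.6 in R0 (0.16 ± 0.18). T28A11.16 (186655_at) read 57.9, 74.2 and 30.8 in M24 against 20.8 to 28.1 in R24 (1.16 ± 0.30), and 22.6 to 26.7 in M0 against 23.7 to 24.8 in R0 (0.04 ± 0.16). In both genes M24 replicate 2 was highest and replicate 3 was close to the reference, and neither was called by limma at 24 hr. Another probe set, 181325_s_at, names T28A11.2 together with C17B7.2 and behaved otherwise, with muscle higher by 1.93 ± 0.29 at 24 hr and by 1.54 ± 0.27 at 0 hr. The share of that signal that belongs to T28A11.2 cannot be read from a probe set that names 2 genes.

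The 2 genes also lie close together in the genome. In the RefSeq gene order (assembly WBcel235), 8 coding genes separate them, 5 of which were measured singly. Of these, fbxa-64, an F-box gene next to T28A11.2, was higher by 1.32 ± 0.41 at 24 hr and by 0.62 ± 0.43 at 0 hr, and was called at neither time (adjusted p = 0.085 and 0.40, limma). The other 4 (srbc-5, T28A11.18, T28A11.19 and T28A11.4) differed by 0.11 to 0.39 at 24 hr and none was called. No other pair among the 18 was as near: the next closest had 182 genes between them.

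**Figure D3:**
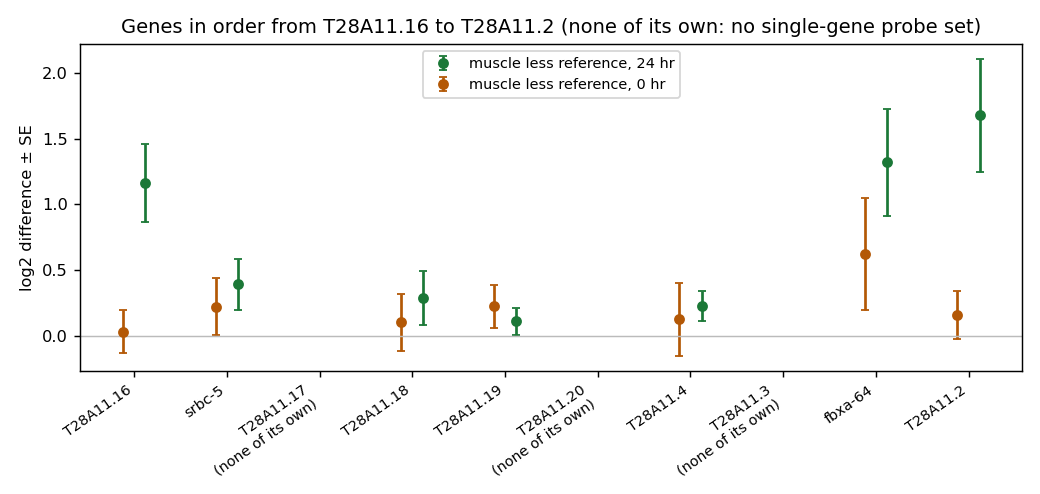
Difference of muscle from reference (log2, points, with the SE of the limma fit as bars) at 24 hr in green and 0 hr in orange, for the genes from T28A11.16 to T28A11.2 in gene order. The outer genes and fbxa-64 exceed 1 at 24 hr, and the 4 measured genes between T28A11.16 and fbxa-64 stay at or below 0.39.

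Immediate neighbours in gene order were also looked at for the 17 coding genes. Of 34 neighbouring positions, 31 held a gene measured singly, with a median difference of 0.06 at 24 hr. Limma called 2 of the 31 raised (2.43% of all genes): anmt-3, beside T07C12.10, which was higher at both times (3.50 ± 0.36 at 24 hr and 3.34 ± 0.24 at 0 hr), and mdt-6, a Mediator subunit gene beside Y57E12AL.6 (0.92 ± 0.16 and -0.06 ± 0.31). It called 1 lowered (6% of all genes), the homeobox gene ceh-48 beside C17H12.10, which was lower at both times (-1.15 ± 0.18 and -1.16 ± 0.20). pas-2, a proteasome alpha subunit gene beside D1054.1, was higher by 1.29 ± 0.33 at 24 hr and by 0.19 ± 0.21 at 0 hr without being called (adjusted p = 0.053 and 0.60, limma).

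F40A3.3 (193386_at) encodes a phosphatidylethanolamine-binding protein, a family of lipid-binding proteins conserved in animals. It lay nearest to the 24 hr threshold, with 436, 413 and 253 in M24 against 216, 136, 234 and 145 in R24 (1.01 ± 0.28). The lowest M24 array exceeded the highest R24 array by 1.08-fold. In fresh cells its M0 arrays (123 to 197) lay inside the range of its R0 arrays (99.1 to 222).

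F44G4.6 (177844_at), annotated as a structural constituent of the ribosome, had the second largest difference at 24 hr. It read 574, 566 and 291 in M24 and 112, 97.1, 94.3 and 90.8 in R24, a difference of 2.21 ± 0.25 or 4.64-fold, and its R24 arrays were close together (SD 0.13, log2). In fresh cells it read 140, 179 and 155 in M0 against 105, 209 and 104 in R0 (0.26 ± 0.28), so the M0 arrays lay within the R0 range. R0 replicate 2 set the upper end of that range. C07H6.2 (176087_at), whose closest human protein is a regulatory subunit of protein phosphatase 1, was the gene with the most even M24 arrays (456, 446 and 391, SD 0.12). Its R24 arrays read 215, 203, 275 and 112 and the difference was 1.17 ± 0.29, with little difference in fresh cells (0.12 ± 0.19).

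F26D11.20 (189204_at) is the non-coding RNA. The annotation used in the study gave this probe set to F26D11.1, a gluconate kinase gene, so which transcript it measures is not settled. It read 166, 265 and 102 in M24 and 91.4, 80.3, 57.9 and 69.4 in R24 (1.16 ± 0.32), and its fresh arrays overlapped, at 59.8 to 77.4 in M0 and 50.7 to 77.4 in R0.

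Among the 7 genes with no function given, Y39B6A.1 (173609_at) had the largest difference of the 18. Its cultured muscle arrays read 170, 363 and 442 against 44.3, 30.2, 73.4 and 53.97 in R24, a difference of 2.65 ± 0.40 or 6.27-fold. In fresh cells the mean was lower in muscle (-1.30 ± 0.47), with 45.7, 42.6 and 65.9 in M0 and 216, 51.5 and 172 in R0. R0 replicate 2 lay inside the muscle range there, so the fresh groups overlapped. Muscle was lower in each of the 3 same-numbered pairs, but that pairing is an assumption. The other probe set for the gene, 185554_s_at, had the same sign at both times (1.99 ± 0.37 at 24 hr and -0.64 ± 0.44 at 0 hr), with M24 arrays at 108 to 220 and R24 arrays at 24.2 to 56.9.

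W06H8.2 (182999_at) had the lowest value in fresh muscle. It read 72.7, 42.9 and 57.0 in M0 and 214, 91.4 and 193 in R0 (-1.47 ± 0.33), without overlap. Cultured muscle read 735, 740 and 1070 against 292, 246, 230 and 382 in R24 (1.57 ± 0.22), again without overlap but in the other direction. C17H12.10 (187029_at) was lower in fresh muscle on average (-0.99 ± 0.37), but its M0 arrays were spread widely, at 254, 77.6 and 144, and replicate 1 lay within the R0 range of 246 to 322. In cultured cells it read 749, 809 and 626 in M24 against 454, 275, 174 and 221 in R24 (1.46 ± 0.31).

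**Figure D4:**
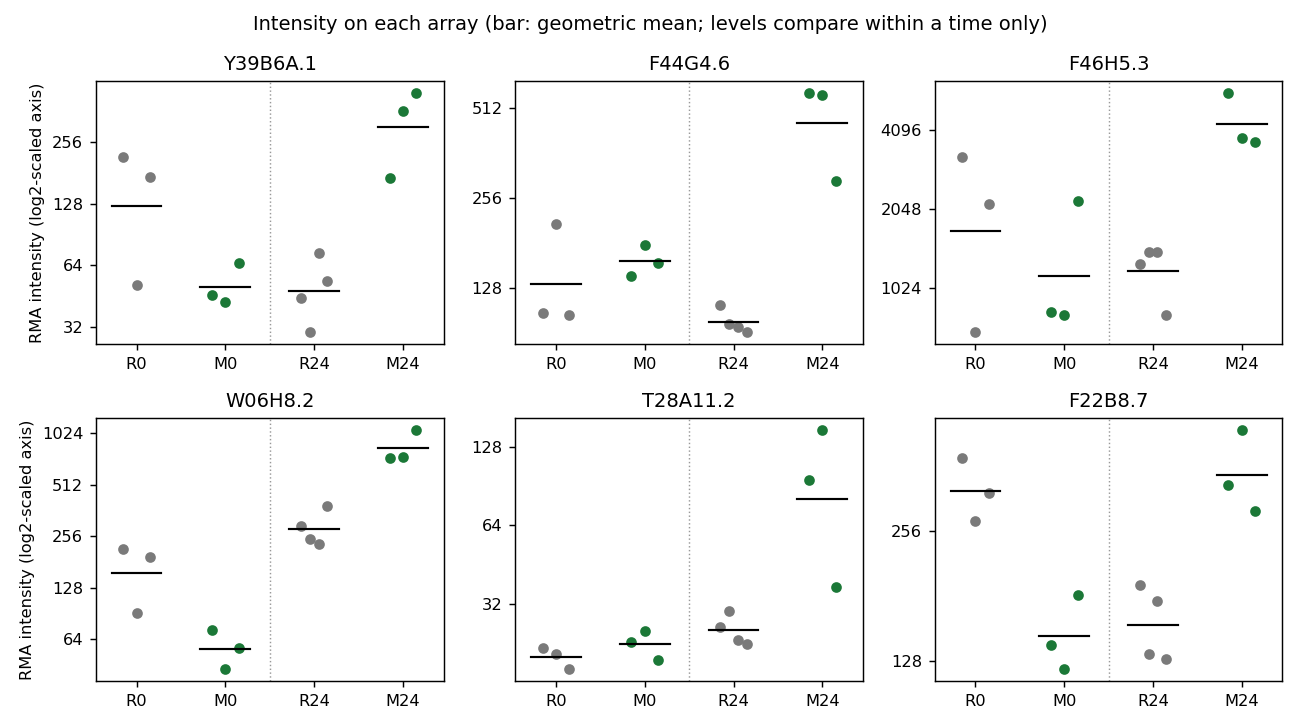
Intensity on each array (y axis, log2-scaled) for 6 of the genes in R0, M0, R24 and M24, with points for arrays and bars for geometric means; levels are comparable within a time only. W06H8.2 and F22B8.7 lie below the reference on every fresh muscle array and above it on every cultured muscle array, while the fresh arrays of T28A11.2 overlap and its M24 arrays (37.2 to 149) lie above R24 (22.4 to 30.1).

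Y57E12AL.6 (187271_at) read 708, 746 and 399 in M24 and 166 to 277 in R24 (1.41 ± 0.27), with fresh arrays of 150 to 429 in M0 that enclosed the R0 range. C26B9.2 (181151_at) differed by 1.28 ± 0.24 at 24 hr, with 88.7, 62.9 and 121 in M24 and 30.1 to 42.3 in R24. In fresh cells its arrays overlapped, at 91.7 to 172 in M0 and 62.5 to 137 in R0 (0.23 ± 0.33). F02A9.7 (187172_at) read 195, 164 and 109 in M24 against 63.7 to 81.6 in R24 (1.13 ± 0.21). T07C12.10 (185444_at) read 48.0, 43.4 and 25.8 in M24 and 14.7 to 19.6 in R24 (1.18 ± 0.23), and lay below the median probe set in every group. The last 2 differed by 0.17 ± 0.21 and 0.13 ± 0.28 in fresh cells.

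The spread among cultured muscle arrays had a common form. M24 replicate 3 was the lowest of the 3 M24 arrays for 15 of the 18 genes (83.3%). The same held for 98 of the sequence-named genes that were higher at both times (82.4%), and for 36.9% of all genes. The median of the 18 genes over the R24 mean was 1.36 on replicate 1, 1.55 on replicate 2 and 0.84 on replicate 3. The 3 exceptions were Y39B6A.1 and W06H8.2, which were highest on replicate 3 and lowest on replicate 1, and C26B9.2, highest on replicate 3 and lowest on replicate 2. Other genes were lower on replicate 3 too. All 14 body wall muscle markers were lowest there, with a summed intensity of 14060 against 25387 on replicate 1 and 22243 on replicate 2. All 31 proteasome genes measured were also lowest there, with a sum of 21243 against 49044 and 51739. That list follows a theme reported from these same arrays, so it is not independent evidence. Epidermal markers were highest there (2584 against 2086 and 1965), as were those of the pharynx (1124 against 841 and 736), glia (415 against 352 and 372) and coelomocytes (266 against 203 and 156). Other lists had their lowest sum there, namely neurons (3175 against 4768 and 5297), intestine (1577 against 2076 and 1975), germline and maternal genes (1867 against 2496 and 3647) and heat shock and stress genes (7551 against 20768 and 18838). A sum leans on its brightest genes. Gene by gene, replicate 3 was lowest for 10 of 16 neuronal, 3 of 11 intestinal and 5 of 12 germline and maternal genes. For heat shock and stress genes it was 11 of 16, beside the 36.9% of all genes. The arrays also differed as a whole. Over all probe sets the log2 range from lowest to highest decile was 3.91 on replicate 3, 4.50 on replicate 1 and 4.86 on replicate 2. The median intensity was 58.0 on replicate 3, 54.4 on replicate 1 and 50.9 on replicate 2. The part of these differences in the values of the 18 genes was not tested.

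The proteasome list was the nearest of the fixed lists to the pattern that selected the genes, with a median of 0.83 at 24 hr and -0.08 at 0 hr. Limma called only 2 of its 31 genes raised at 24 hr (pbs-1 and pbs-7) and none at 0 hr. Some of the uncalled genes passed the minimum fold at 24 hr and missed only on adjusted p. pas-2 was 1 of them (1.29, limma adjusted p = 0.053). Others also fell short of the fold. The paper, with a different test (significance analysis of microarrays) and the same minimum fold, reports 24 proteasome genes elevated in M24 and none in M0. The limma count thus does not show that the list was unchanged. The 16 heat shock and stress genes measured had medians of -0.10 and 0.02, with 2 raised and 2 lowered at 24 hr and 1 raised at 0 hr. gst-4, a glutathione S-transferase gene that responds to oxidative stress, was higher by 2.08 ± 0.14 at 24 hr (adjusted p = 0.0014, limma), and hsp-43, a small heat shock protein gene, was lower (-1.97 ± 0.34, adjusted p = 0.015).

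In fresh cells, 2 scan days held both a muscle and a reference array. Within day 1 the 18 genes had a median difference of 0.04, with 9 below 0 and 4 at or above 0.3 (D1054.1, C26B9.2, F44G4.6 and C07H6.2). Within day 3 the median was -0.22, with 11 below 0 and 5 at or above 0.3 (F44G4.6, T07C12.10, C26B9.2, T28A11.2 and F02A9.7). F44G4.6 and C26B9.2 thus reached 0.3 within each day (0.42 and 0.78 for F44G4.6, 0.55 and 0.53 for C26B9.2), above the limit that their means over all arrays stayed under. Y39B6A.1, F46H5.3, W06H8.2, F22B8.7 and T09B4.8 differed within both days by between -2.24 (Y39B6A.1, day 1) and -0.898 (T09B4.8, day 3). C17H12.10 (-0.14 and -1.66), F56A11.5 (-0.14 and -0.39) and F40A3.3 (-0.17 and -0.02) were also below 0 within both days. F46H5.3, whose fresh arrays overlapped, read -1.96 and -1.40 within days. These counts have no share over all genes beside them. Fresh-cell values took part in the selection, so the counts carry no evidence about the 18 genes.

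Same-numbered fresh arrays, taken as pairs, gave lower values in muscle in all 3 pairs for 5 genes (Y39B6A.1, W06H8.2, C17H12.10, F22B8.7 and F56A11.5) and higher values in all 3 for 1 (T28A11.2). The other 12 had pairs of both signs. That the numbers pair the samples is an assumption. Here too no share over all genes is given, and the fresh-cell values took part in the selection. The counts are descriptions only.

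The thresholds cut through a continuous range. Just inside the 24 hr threshold lay F40A3.3 (1.01), D1054.1 (1.03) and F56A11.5 (1.03), and just outside it T11B7.2 (0.99), C34F11.2 (0.96) and C56A3.8 (0.95). Just inside the 0 hr threshold lay D1054.1 (0.26), F44G4.6 (0.26) and C26B9.2 (0.23), and just outside it C07E3.8 (0.32), Y11D7A.10 (0.33) and K11H12.3 (0.33). Another 5 genes (F38B2.4, F56F11.2, F41E7.2, D1086.2 and Y72A10A.1) passed both log2 thresholds, with 1.06 to 1.46 at 24 hr, but had at least 1 M24 array below an R24 array.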

How the data were processed

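Total RNA of sorted cells was amplified, biotin-labelled and hybridised to Affymetrix C. elegans arrays. The authors summarised probes by RMA (background correction, quantile normalization and probe summary), and the deposited values are linear probe-set intensity. The number of arrays limits the precision. Pairs of arrays of the same time shared 55 to 1410 identical values and pairs of different times 0 or 1, so the times were taken as separate RMA runs and levels were compared only within a time. Scan day and chip lot came from deposited scanner settings (other text); R24 replicate 4 has none.

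Intensities were log2-transformed without a pseudocount, and all 22548 probe sets were kept. Of these, 20766 name 1 gene, 887 several and 895 none in the platform annotation. The brightest single-gene probe set stood for each gene. Of the 6718 sequence-named genes, 6694 were found in the RefSeq table and 0 had another symbol there. M24 was compared with R24, M0 with R0, and the 2 differences with each other, by limma (version 3.58.1, R 4.3.3; lmFit and eBayes, two-sided). Calls needed a fold of at least 1.7 and a p under 0.05 after Benjamini-Hochberg adjustment across every probe set. ± is the SE of the fit, and SD is over arrays on the log2 scale. The scripts were tested on simulated data. Figures used matplotlib 3.10.9 (Python 3.11.15).

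The members and the gene lists were chosen with earlier results of these data known. Named were all members, the nearest genes on either side of each threshold, neighbours in gene order, myo-3 and up to 2 called genes of other lists. argk-1, pas-2, fbxa-64, anmt-3, mdt-6 and ceh-48 were chosen after their values were seen. Protein and promoter features were not analysed here. Deviations from the group means of same-numbered muscle and reference arrays correlated at 0.22, 0.32 and 0.15 at 0 hr. At 24 hr the values were 0.21, -0.04 and 0.38. Differently numbered arrays correlated at -0.40 to 0.27 at 0 hr and at -0.44 to 0.26 at 24 hr. M0 replicate 2 shared a scan day with R0 replicate 3. The numbers were taken to pair samples at 0 hr but not at 24 hr, and the pairing at 0 hr is an assumption.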

Additional observations from a re-analysis of the deposited data

Results flagged for a closer look

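Each of these 3 values is given without an explanation. T28A11.16 had 1 array apart in the cultured reference: replicate 3 read 28.1 against 20.8 to 21.7 on the other 3 arrays, a gap of 0.848 of the group's whole range on the log2 scale, above Dixon's critical value of 0.829 for 4 arrays. Chance flags about 1 in 20 groups. The enrichment of cpr-1, an intestinal cathepsin B-like protease gene, was higher at 24 hr (1.57 ± 0.34) than at 0 hr (-0.32 ± 0.17) by 1.90 on the log2 scale (limma adjusted p = 0.034). That of pbs-7, a proteasome beta subunit gene, was higher at 24 hr (1.18 ± 0.21) than at 0 hr (-0.37 ± 0.20) by 1.55 (limma adjusted p = 0.022). Not among the 3, the pharynx marker tnc-2 met the same limma call, with a difference of 1.45 (adjusted p = 0.037). Its muscle value was below the reference at both times (-0.50 ± 0.22 at 24 hr and -1.95 ± 0.22 at 0 hr).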

How the results depend on the processing

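The number of genes that met the selection depended on the thresholds and the arrays. It was 5 with a 24 hr threshold of 1.5, 8 with a 0 hr threshold of 0, and 16 to 61 when each array was left out in turn. Without M24 replicate 3 it was 61, the original 18 included, and without M24 replicate 2 it was 33 with 12 of the 18. Only Y39B6A.1, F46H5.3, T28A11.2, W06H8.2, C17H12.10 and Y57E12AL.6 were selected whichever array was left out. Quantile normalization within each time gave 27 genes with 12 of the 18. F44G4.6, C26B9.2, C07H6.2, D1054.1 and F40A3.3 then reached 0.3 at 0 hr, and T28A11.16 no longer separated at 24 hr. With scan day as a fixed block at 0 hr it was 19, with 14 of the 18. That block takes the 0 hr difference only from the scan days that held both groups, without R0 replicate 2 and M0 replicate 3. Over the leave-one-out fits the median difference was 1.11 to 1.42 at 24 hr and -0.079 to 0.073 at 0 hr.

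Over all probe sets, limma called 510 raised and 1337 lowered in M24, 859 and 1784 in M0, and 211 and 224 with higher or lower enrichment at 24 hr. Raised and lowered calls in M24 were 831 and 1233 after quantile normalization, and 188 and 430 with scan day as a random block. They were 251 and 755 with the replicate block, and 448 and 701 with array weights. R24 replicate 4 has no muscle array of its number, so it did not enter the difference under the replicate block. The replicate block gave 78 and 94 calls of higher and lower enrichment, and array weights 369 and 390. At 0 hr the replicate block gave 957 and 1924. Leaving out 1 array gave 194 to 1230 raised and 584 to 1479 lowered in M24, 620 to 907 and 1281 to 1901 in M0, and 92 to 420 and 114 to 302 for higher and lower enrichment. The cause of these changes was not tested. Scan day as a fixed block could not be run for the difference between times, since no recorded scan day at 24 hr held both groups.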
